A study of Mus musculus with 6 samples.

Results

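The proteasome is the protease that destroys most ubiquitin-tagged proteins in the cytosol and nucleus. The genes described here encode its subunits and the factors that bind it, and were measured in cultured mouse marrow cells in which shRNA lowered Rad21, a subunit of cohesin, the ring that holds chromosomes. Genes were taken by symbol, as those that begin with Psma, Psmb, Psmc, Psmd or Psme followed by a number, without the immunoproteasome genes Psmb8 and Psmb9. This gave 41 genes of 12393 measured, of which 39 encode subunits, base chaperones or activators. The rule also took 2 genes that encode no subunit. Psmc3ip encodes a cofactor of meiotic recombination, and Psme3ip1 a protein that binds the activator PSME3. Of 44 symbols that meet the rule in the RefSeq gene table, Psmb11, the thymus beta subunit, was not analysed here. Psme2 and Psme2b share a probe set annotated to several genes and were also not analysed.

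Lineage-depleted marrow of C57/BL6 animals aged 6 to 8 weeks was infected for 24 h with a lentivirus that carried no shRNA (empty vector) or with Rad21 shRNA1 or Rad21 shRNA2, and each of these 3 groups had 2 arrays. All groups went through overnight puromycin at 1 µg/mL, sorting of live cells and plating of 10000 cells per mL in methylcellulose with cytokines, and RNA was taken on day 7. The cells are a mixed culture that matured during those days, so a change in the mix of cell types and a change of RNA within a cell cannot be told apart. The labels do not tie replicates to separate animals or cultures, so the p-values cover the spread among the arrays alone, and that spread may be technical.

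Values are log2 of the RMA intensities deposited by the authors. Differences are shRNA minus empty vector on this scale ± SE from limma, and adjusted p-values are over all 12393 genes with a threshold of 0.05. Rad21 itself read 11.14 and 10.49 on the empty-vector arrays, 9.63 and 9.14 with shRNA1 and 9.50 and 9.11 with shRNA2. All 4 shRNA arrays lay below both controls, at a mean of 35.99% of control, and the difference of -1.47 ± 0.26 missed the threshold (limma adjusted p = 0.0558). Empty-vector replicate 1 stood apart. Its Gapdh 3′ control probe set exceeded the 5′ one by 2.42, against -0.078 to 0.017 on the other arrays, and its 10 measured erythroid markers averaged 9.72, against 7.35 to 8.03 elsewhere. The pan-leukocyte genes Ptprc and Spi1 averaged 10.38 to 10.87 on all 6 arrays, while the 4 measured B cell markers averaged 4.42 to 4.69 and the 5 T and NK cell markers 5.08 to 5.31.

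As background, the 20S core particle is a barrel whose outer rings are built from alpha subunits and whose inner rings are built from beta subunits. The beta subunits Psmb5, Psmb6 and Psmb7 carry the active sites, and in immune cells they can be exchanged for Psmb8, Psmb9 and Psmb10. The 19S cap on the barrel's end receives ubiquitinated proteins. Its base holds a ring of ATPases that unfolds the substrate, and its lid removes the ubiquitin chain. When proteasome activity falls, the transcription factor NRF1, encoded by Nfe2l1, raises transcription of subunit genes through antioxidant response elements, whereas interferon raises the immunoproteasome and the activator PA28.

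The promoters of 34 of the 41 genes were found in RefSeq (build GRCm38.p6), as windows of 300 bases with 250 before and 50 after the start site. The promoters shown are those of Psmc3ip, the only gene of the 41 whose difference passed the threshold, and of Psmd12 and Psmb5, a lid and a catalytic subunit whose promoters hold the core of an antioxidant response element. The 250 bases before the start site are printed, and capitals mark a CCAAT box (CCAAT) in Psmc3ip and the element core (TGACNNNGC, on either strand) in the others.
Psmc3ip, chr11:101095436-101095685, minus strand: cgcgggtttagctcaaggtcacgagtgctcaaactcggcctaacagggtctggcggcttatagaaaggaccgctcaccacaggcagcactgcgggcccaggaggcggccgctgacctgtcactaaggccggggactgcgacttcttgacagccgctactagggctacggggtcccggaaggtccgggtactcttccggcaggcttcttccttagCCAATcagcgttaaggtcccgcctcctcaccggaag
Psmd12, chr11:107479278-107479527, plus strand: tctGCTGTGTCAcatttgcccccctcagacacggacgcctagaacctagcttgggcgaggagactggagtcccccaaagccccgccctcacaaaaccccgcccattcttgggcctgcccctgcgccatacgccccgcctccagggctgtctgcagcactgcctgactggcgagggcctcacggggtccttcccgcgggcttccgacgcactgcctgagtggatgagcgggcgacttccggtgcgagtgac
Psmb5, chr14:54617996-54618245, minus strand: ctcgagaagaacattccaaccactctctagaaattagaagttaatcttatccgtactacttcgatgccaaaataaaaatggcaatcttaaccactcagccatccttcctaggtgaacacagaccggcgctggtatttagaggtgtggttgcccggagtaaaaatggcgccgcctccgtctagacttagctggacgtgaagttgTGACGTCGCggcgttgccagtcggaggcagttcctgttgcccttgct

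Counted from the start site, the CCAAT box of Psmc3ip begins at -36 and the element core of Psmb5 at -47, and that of Psmd12, on the reverse strand, at -247. Both strands of all windows were searched. The element core was in the promoters of 6 of the 34 genes (Psmb5, Psmb6, Psmc6, Psmd9, Psmd12 and Psme4), a share of 17.6% beside 14% of all 27025 genes with a window. The CCAAT box was in 14 of 34, or 41.2% beside 41.1%. The core of the interferon-stimulated response element, GAAANNGAA, was in 6 of 34 (Psmb3, Psmb4, Psmc2, Psmd4, Psmd9 and Psme1), or 17.6% beside 9.76%, and the gamma-activated site TTCNNNGAA was in Psmd2 alone, 2.94% beside 9.55%. The median shRNA difference was 0.18 for genes with the antioxidant element core and 0.15 for those without it. For the interferon element core the medians were 0.011 with it and 0.19 without it. These are matches of letters in a short window, described without a test.

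The main comparison asked whether proteasome genes differed when Rad21 was knocked down by either shRNA. Of the 39 genes that encode subunits, chaperones or activators, none passed the threshold by limma, and 8 had an unadjusted p under 0.05, all of them higher with shRNA. Among all 41 genes, 1 rose, Psmc3ip, and 0 fell, beside 0.734% of all genes rising and 1.4% falling. The middle of the group nonetheless lay above zero. The median difference over the 41 genes was 0.17, with 29 positive and 12 negative. Over all genes the median was -0.023 and 46.4% were positive. The 41 genes are mostly bright, with 35 among the brightest 25% of all genes. With the dimmer 50% of all genes left out, the background median was 0.036 and 53.6% were positive. That setting drops Psma8 and Psmc3ip, and 27 of the 39 proteasome genes left were positive, with a median of 0.17. The lean was thus smaller beside bright genes than beside all genes. The shares that follow are set beside all genes, bright and dim. An unadjusted p under 0.05 with a higher value was seen in 9 of 41 (22%; all genes 7.88%), and with a lower value in 0 of 41 (all genes 8.84%). All 4 shRNA arrays lay above both controls in 14 of 41 (34.1%; all genes 11.5%), and all 4 lay below both in 0 of 41 (all genes 13.6%). The 95% interval lay within 2-fold in both directions for 30 of the 39 subunit, chaperone and activator genes. This is 76.9%, near the 76.3% of all genes. The widest interval, that of Psmd8, ran from -0.79 to 2.26. These intervals and p-values take a gene's spread as equal in the 3 groups. The control arrays lay farther from their group mean (root mean square distance 0.35) than shRNA1 (0.096) or shRNA2 (0.11). Intervals against the empty vector may therefore be too narrow.

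**Figure D1:**
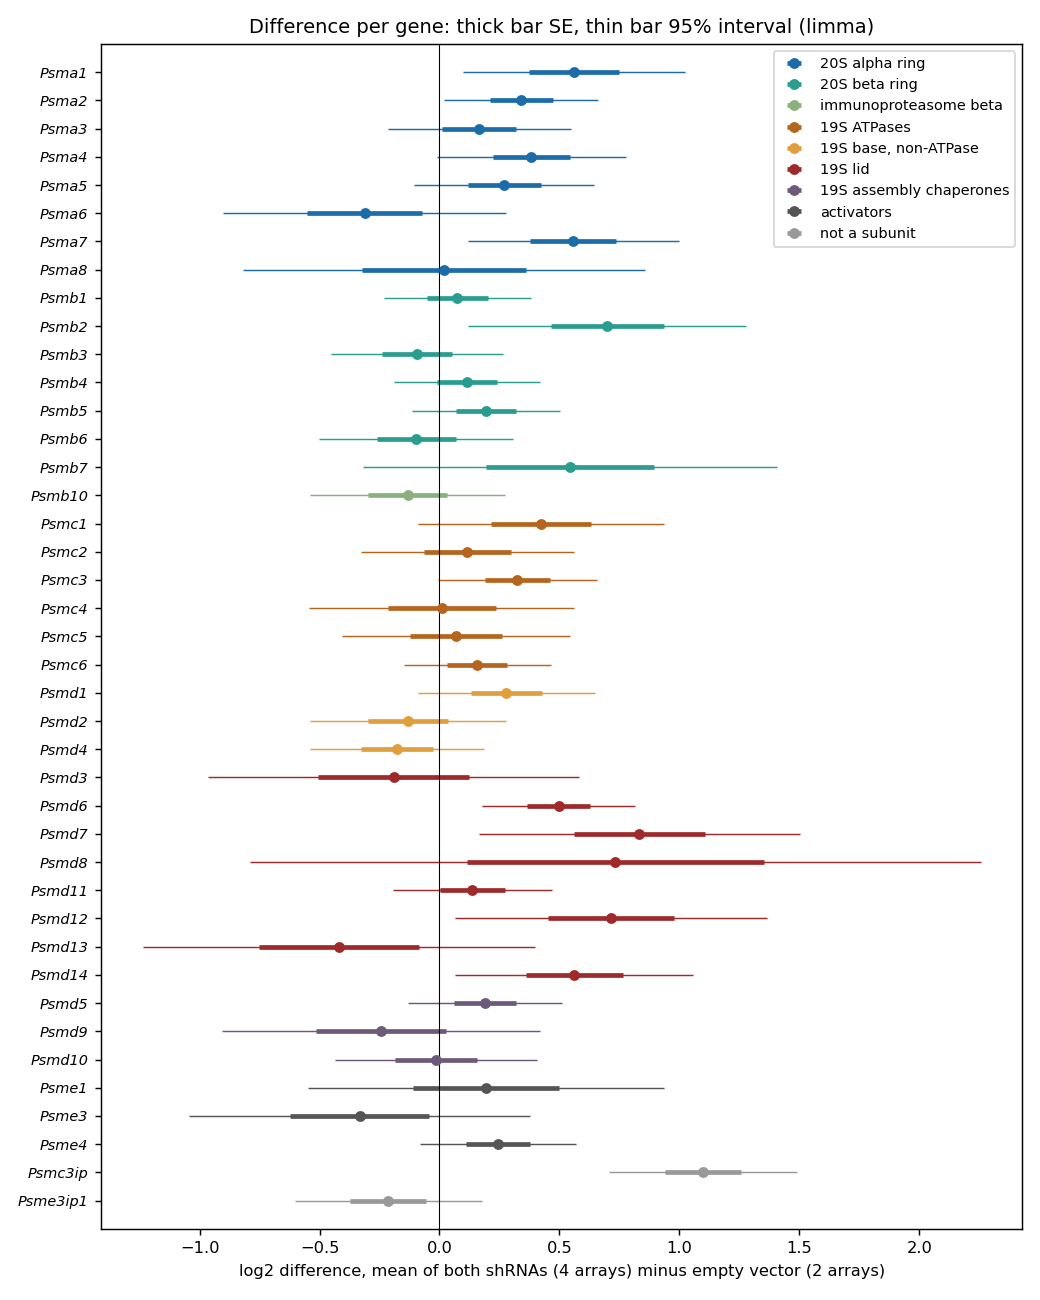
Log2 difference between the mean of both shRNAs (4 arrays) and the empty vector (2 arrays) for each of the 41 genes, coloured by role, with thick bars for the SE and thin bars for the 95% interval of the limma fit. Most points lie right of zero, Psmc3ip lies farthest right at 1.10, and Psmd8 has the widest interval.

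The alpha ring opens and closes the gate of the barrel and binds its caps. Of its 8 genes 7 had positive differences, with a median of 0.30. None passed by limma, with 3 at an unadjusted p under 0.05 (37.5%; all genes 16.7%). Psma7 read 10.28 and 10.71 on the empty-vector arrays, 11.09 and 10.82 with shRNA1 and 11.21 and 11.08 with shRNA2. Every shRNA array lay above both controls, and the difference was 0.56 ± 0.18 (adjusted p = 0.208, 95% interval 0.12 to 1.00). Psma1 differed by 0.56 ± 0.19 (adjusted p = 0.223), Psma2 by 0.34 ± 0.13 (0.277) and Psma4 by 0.38 ± 0.16 (0.309), again with no overlap between the shRNA and control arrays. Empty-vector replicate 1 was the lowest array for Psma1, Psma4 and Psma7, and without it these differences were 0.28, 0.19 and 0.34, while that of Psma2 was 0.33. Psma5 (0.27 ± 0.15) and Psma3 (0.17 ± 0.16) overlapped. Psma6 was the exception in sign. It read 12.41 on empty-vector replicate 1, above every other array (11.57 to 11.82), and differed by -0.31 ± 0.24 (adjusted p = 0.591). Psma8, the alpha subunit of the testis proteasome, was dim (5.02 to 6.25) and differed by 0.019 ± 0.34.

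In the beta ring the catalytic subunits did not share a sign. Psmb5, which carries the chymotrypsin-like site that bortezomib blocks, read 11.22 and 11.30 on the controls, 11.48 and 11.37 with shRNA1 and 11.47 and 11.49 with shRNA2. Its shRNA arrays all lay above the controls, by a mean of 0.19 ± 0.13 (adjusted p = 0.511, 95% interval -0.11 to 0.50). Psmb6, the caspase-like subunit, read 11.17 and 11.60 on the controls, 11.32 and 11.42 with shRNA1 and 11.22 and 11.20 with shRNA2, all of them between the control arrays (-0.097 ± 0.16, adjusted p = 0.835). Psmb7, the trypsin-like subunit, read 7.64 and 8.92 on the controls, 8.48 and 8.73 with shRNA1 and 9.08 and 8.99 with shRNA2. The first control was the lowest array and the second lay among the shRNA arrays, and the difference was 0.54 ± 0.35 (adjusted p = 0.509). Among the structural beta subunits Psmb2 differed most, by 0.70 ± 0.24 (adjusted p = 0.225) with no overlap, from 9.66 and 10.47 on the controls to 10.67 to 10.85 with shRNA. Without empty-vector replicate 1 it was 0.30. Psmb1, Psmb3 and Psmb4 lay between -0.093 and 0.11.

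The interferon-inducible subunits gave no called difference. Psmb10, the immunoproteasome counterpart of Psmb7, read 9.26 and 9.68 on the controls, 9.30 and 9.46 with shRNA1 and 9.29 and 9.30 with shRNA2, so the shRNA arrays lay between the controls (-0.13 ± 0.17, adjusted p = 0.759). Psmb8 and Psmb9, which the symbol rule leaves out, differed by 0.60 ± 0.28 (adjusted p = 0.361) and 0.37 ± 0.26 (0.544). In both, empty-vector replicate 1 (9.53 and 8.06) was below all other arrays (10.55 to 10.74 and 8.83 to 8.95). Psme1, the alpha subunit of the PA28 activator, read 9.77 and 10.87 on the controls and 10.49 to 10.53 on all 4 shRNA arrays, again between the controls (0.19 ± 0.30, adjusted p = 0.816). Of the other activators, Psme4, which encodes PA200, read 10.26 and 10.16 on the controls, 10.50 and 10.31 with shRNA1 and 10.47 and 10.54 with shRNA2, without overlap (0.24 ± 0.13, adjusted p = 0.429). Psme3, the nuclear activator PA28 gamma, read 8.82 and 7.83 on the controls and 7.77 to 8.10 with shRNA (-0.33 ± 0.29, adjusted p = 0.634).

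All 6 ATPases of the 19S base had positive differences, from 0.0095 for Psmc4 to 0.42 for Psmc1, with a median of 0.14. Without empty-vector replicate 2, Psmc2 (-0.14), Psmc4 (-0.36) and Psmc5 (-0.22) were negative. None had an unadjusted p under 0.05 by limma. Psmc3 read 10.34 and 10.19 on the controls, 10.53 and 10.36 with shRNA1 and 10.78 and 10.69 with shRNA2, and was the only ATPase without overlap (0.33 ± 0.14, adjusted p = 0.308). The non-ATPase base subunits split into Psmd1, a scaffold of the base, at 0.28 ± 0.15, and Psmd2 (-0.13 ± 0.17) and the ubiquitin receptor Psmd4 (-0.18 ± 0.15). The sign of Psmc4 turned with array scaling (-0.00050 after median centring and -0.021 after quantile normalization).

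The lid gave the largest differences and also the widest spread among members. Its 8 genes ran from -0.42 for Psmd13 to 0.83 for Psmd7, with a median of 0.53. An unadjusted p under 0.05 was seen in 4 of them (50%; all genes 16.7%). Psmd6, which has the smallest p of the subunits, read 10.63 and 10.58 on the controls, 11.07 and 10.92 with shRNA1 and 11.27 and 11.14 with shRNA2. Its controls agreed closely and every shRNA array lay above them, and the difference was 0.50 ± 0.13 (adjusted p = 0.140, 95% interval 0.18 to 0.82). Without replicate 1 or replicate 2 of the empty vector it was 0.52 or 0.47. Psmd14, the deubiquitinase of the lid, differed by 0.56 ± 0.20 (adjusted p = 0.246) and Psmd12 by 0.71 ± 0.26 (0.257). Psmd7, the partner subunit of Psmd14 without catalytic residues, differed by 0.83 ± 0.27 (adjusted p = 0.213). In these 3 genes replicate 1 of the empty vector was the lowest array by 0.62 to 0.91, and without it the differences were 0.25 for Psmd14, 0.26 for Psmd12 and 0.38 for Psmd7. Psmd8 showed this in the extreme. It read 9.39 on that array and 11.80 on empty-vector replicate 2, with shRNA arrays from 11.07 to 11.57, so that its difference of 0.73 ± 0.62 (adjusted p = 0.624) became -0.47 without replicate 1. Psmd13 and Psmd3 did the reverse. Psmd13 read 10.54 on replicate 1 and 9.31 on replicate 2 of the empty vector and 9.47 to 9.53 with shRNA (-0.42 ± 0.33, adjusted p = 0.604), and Psmd3 differed by -0.19 ± 0.31. Psmd11 differed by 0.14 ± 0.14.

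**Figure D2:**
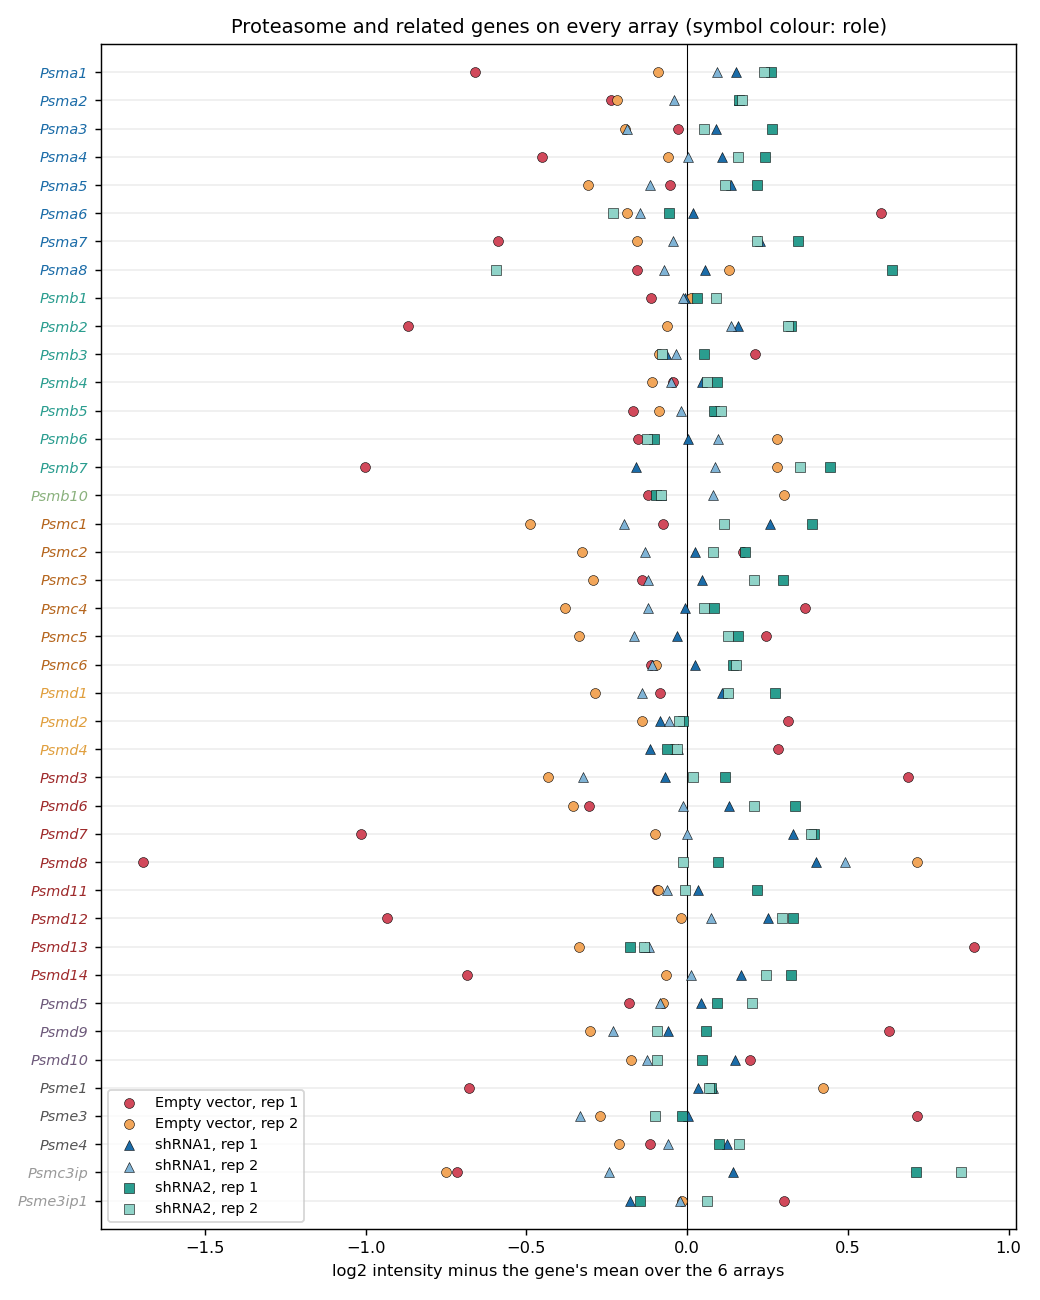
Log2 intensity of each of the 41 genes on each of the 6 arrays, as the distance from that gene's mean over all arrays. Empty-vector replicate 1 (red circles) lies far to the left for Psmd8, Psmd7 and Psmb7 and far to the right for Psmd13, Psme3 and Psmd3, while the shRNA2 arrays (squares) often lie right of the shRNA1 arrays (triangles).

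The 3 chaperones that assemble the 19S base, Psmd5, Psmd9 and Psmd10, differed by 0.19 ± 0.13, -0.24 ± 0.27 and -0.016 ± 0.17. Psme3ip1 differed by -0.21 ± 0.16 (adjusted p = 0.575). It read 9.53 and 9.21 on the controls, 9.05 and 9.21 with shRNA1 and 9.08 and 9.29 with shRNA2, so the groups overlapped.

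Psmc3ip, which encodes the recombination cofactor HOP2 and was taken only because its symbol begins like that of the ATPase Psmc3, was the single gene past the threshold. It read 5.61 and 5.57 on the empty-vector arrays, 6.46 and 6.08 with shRNA1 and 7.03 and 7.17 with shRNA2. The 3 groups did not overlap, with shRNA2 highest. It rose by 1.10 ± 0.16 (limma adjusted p = 0.0365). No detection call was used, so the controls were not shown to be above background, and no fold is given. The call was lost without any single shRNA array and was kept without either control array. A fit with 1 control array left has no measure of the spread among the controls, so the kept call says little. The difference itself lay between 1.00 and 1.19 in these 6 fits. The probe set is dim, brighter than 40% of genes, and has no second probe set beside it.

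**Figure D3:**
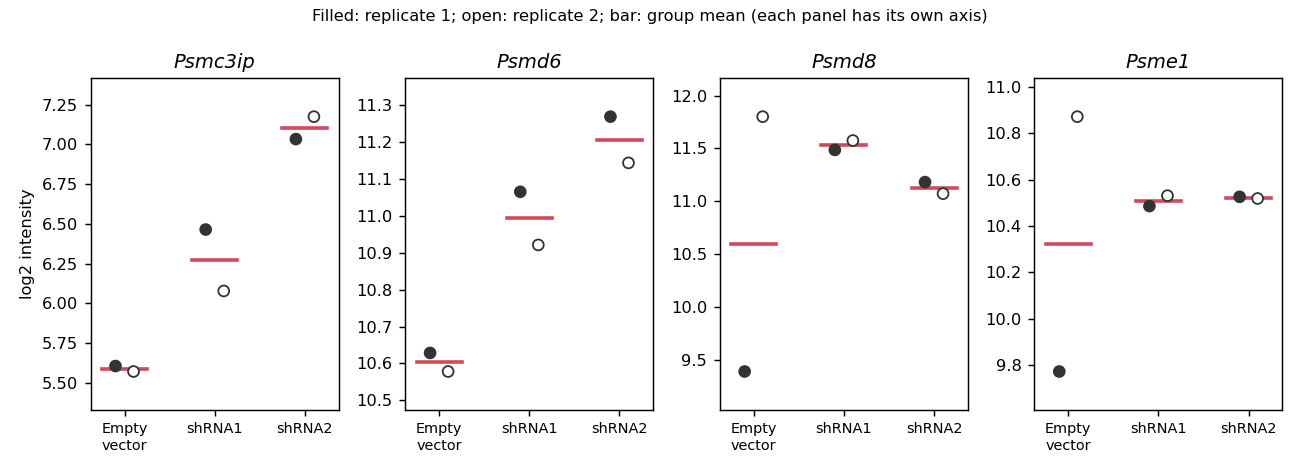
Log2 intensity on each array for Psmc3ip, Psmd6, Psmd8 and Psme1, with replicate 1 filled, replicate 2 open and a bar at each group mean; each panel has its own axis. The controls of Psmc3ip and Psmd6 agree and lie below all shRNA arrays, while those of Psmd8 and Psme1 lie on both sides of them.

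The control arrays spread more than the shRNA arrays, in these genes as over all genes. Over the 41 genes the root mean square distance of an array from its group's mean was 0.35 for the empty vector, compared with 0.096 for shRNA1 and 0.11 for shRNA2, and over all genes the same distances were 0.32, 0.15 and 0.14. Replicate 1 minus replicate 2 of the empty vector ran from -2.41 for Psmd8 to 1.23 for Psmd13. Of the 41 genes 22 (53.7%) were higher on replicate 1, beside 58% of all genes, and 19 were lower. In 30 of the 41 genes (73.2%; all genes 60.1%), this array was the lowest or the highest of the 6. Among the ATPases 5 of 6 were higher on replicate 1, and among the lid genes 3 of 8. With that array left out, 33 of 41 differences were positive (all genes 53.1%) and the median was 0.20. A fit with 1 control array left has no measure of the spread among the controls, which limits any call made in it. With replicate 2 left out, 11 of the 41 rose and 5 fell, where 25.2% of all genes were called, and the median was 0.16. Beside Psmc3ip, the rises were Psma1, Psma4, Psma7, Psmb2, Psmb7, Psmd7, Psmd8, Psmd12, Psmd14 and Psme1, and the falls were Psma6, Psmd3, Psmd9, Psmd13 and Psme3.

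**Figure D4:**
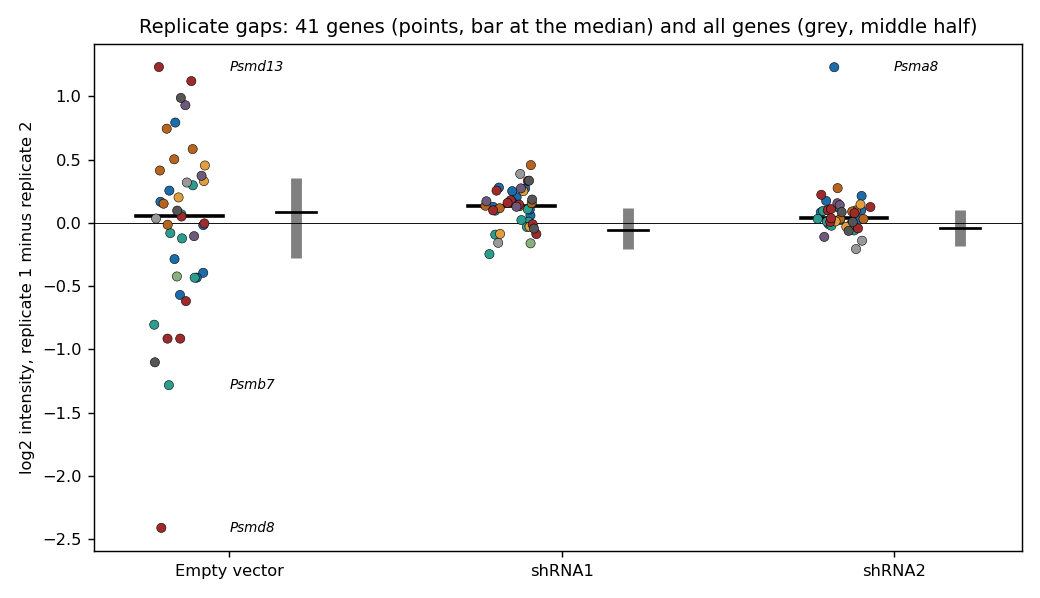
Replicate 1 minus replicate 2 in log2 intensity for the 41 genes (points, coloured by role, with a bar at the median) and for all genes (grey bar from the lower to the upper quartile, line at the median) in each group. The empty-vector gaps run from -2.41 to 1.23, while the shRNA gaps stay within 0.46 of zero apart from Psma8 with shRNA2.

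Of the 41 genes 19 had several probe sets, and in 10 of these all probe sets gave a difference of one sign. Of the 33 other probe sets, 20 had the sign of the one used. Many of the other probe sets were dim and were not shown to be above background, so a small difference on them says little. Bright ones also disagreed in sign. Psmb3 had -0.093 on the probe set used and 0.73 on another that read 9.44 to 10.81. Psma6 had -0.31 and, on another that read 10.93 to 11.15, 0.13. Psmb4 had 0.11 and, on another that read 11.35 to 12.12, -0.19. Psmd13 had -0.42 on the probe set used and -0.47 on another that read 8.59 or more on every array, and Psmd6 had 0.50 and, on another that read 9.77 to 10.90, 0.74. Psmd11 had 0.14 on the probe set used and 0.70 and 0.87 on others that read 9.19 to 10.36 and 8.31 to 10.01. Psme4 had 0.24 and, on others that read 8.83 to 10.21 and 6.14 to 8.50, 0.79 and 1.27. Psmc2 had 0.12 and, on another that read 9.73 to 11.08, 0.76. Empty-vector replicate 1 was the lowest array on each of these other probe sets of Psme4 and Psmc2. For Psmd7, used at 0.83, the other probe sets read 6.58 to 6.98 and 3.92 to 4.08, and for Psme3, used at -0.33, they read 5.31 to 6.79 and 4.63 to 5.12. In 12 of the 19 genes the gap between the control arrays changed sign from one probe set to another, dim ones included. With the mean of all probe sets per gene the median over the 41 was 0.22.

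Each shRNA was also compared with the same empty-vector arrays, so these comparisons share their controls. With shRNA1 no gene of the 41 passed the threshold by limma, beside 0.0968% of all genes rising and 0.137% falling. An unadjusted p under 0.05 was seen in 2 of 41, or 4.88%, beside 9.3% of all genes. These were Psmc3ip (0.68 ± 0.18, adjusted p = 0.303) and Psmd6 (0.39 ± 0.15, 0.504). The lowest p among negative differences belonged to Psme3ip1 (-0.24 ± 0.18, adjusted p = 0.734) and Psme3 (-0.39 ± 0.33, 0.765). The median was 0.077 (all genes -0.033). It was 0.16 without empty-vector replicate 1 or without shRNA1 replicate 2, 0.036 without shRNA1 replicate 1 and 0.17 with the mean of all probe sets. With shRNA2, Psmc3ip rose by 1.51 ± 0.18 (adjusted p = 0.0207) and no other gene of the 41 was called, beside 0.88% of all genes rising and 1.95% falling. The call of Psmc3ip was lost without either shRNA2 array, at adjusted p of 0.192 and 0.196. Psmd6 differed by 0.60 ± 0.15 (adjusted p = 0.111), and on the negative side Psma6 by -0.35 ± 0.28 (0.609) and Psmd13 by -0.43 ± 0.38 (0.655). The median was 0.22 (all genes -0.011), and 11 of 41 (26.8%; all genes 17.8%) had an unadjusted p under 0.05.

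Direct comparison of the shRNAs, in which the controls enter only through the shared estimate of spread, gave no called gene in the whole table (0% in each direction by limma, with 606 genes, or 4.89%, at an unadjusted p under 0.05, 1 of them among the 41). Without either empty-vector array 44 genes were called there, and none of the 41 was among them. The 41 genes leaned one way. The difference of shRNA1 minus shRNA2 was negative in 35 of them (85.4%; all genes 55.1%), with a median of -0.13 (all genes -0.021). Both shRNA2 arrays lay above both shRNA1 arrays in 21 of 41 (51.2%; all genes 23.9%) and below them in 3 (7.32%; all genes 17.7%), which were Psmb6, Psmd8 and Psmd13. All 6 ATPases were higher with shRNA2, by 0.13 to 0.29, as were 12 of the 14 general 20S subunits. Psmc3ip had the largest difference at -0.83 ± 0.18 (adjusted p = 0.494), followed by Psmb7 at -0.43, and the smallest p among subunits was that of Psmc3 (-0.29 ± 0.16, adjusted p = 0.999, 95% interval -0.67 to 0.093). On the positive side Psmb6 differed by 0.16 ± 0.19 and Psmd8 by 0.40 ± 0.72, both at an adjusted p of 0.999. For comparison, shRNA1 replicate 1 was above replicate 2 by a median of 0.13 over the 41 genes, and higher in 31 of them (all genes 40.5%). Markers of cell types also differed between the shRNAs. The 9 measured macrophage markers averaged 9.04 and 9.24 with shRNA1 and 8.00 and 8.12 with shRNA2, and the 11 neutrophil markers averaged 12.48 and 11.87 with shRNA1 and 12.76 and 12.77 with shRNA2. On the empty-vector arrays the macrophage markers averaged 9.23 and 9.75 and the neutrophil markers 10.12 and 9.08. With both shRNAs 6 of the 11 neutrophil markers rose, while 2 of 9 macrophage, 2 of 7 mast cell and 1 of 6 megakaryocyte markers fell. Over all genes 0.734% rose and 1.4% fell. No marker of the other lists was called. All 10 erythroid differences were negative, beside 53.6% of all genes, but empty-vector replicate 1 was the highest array in all 10. The part of cell types in the proteasome gene levels was not tested.

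**Figure D5:**
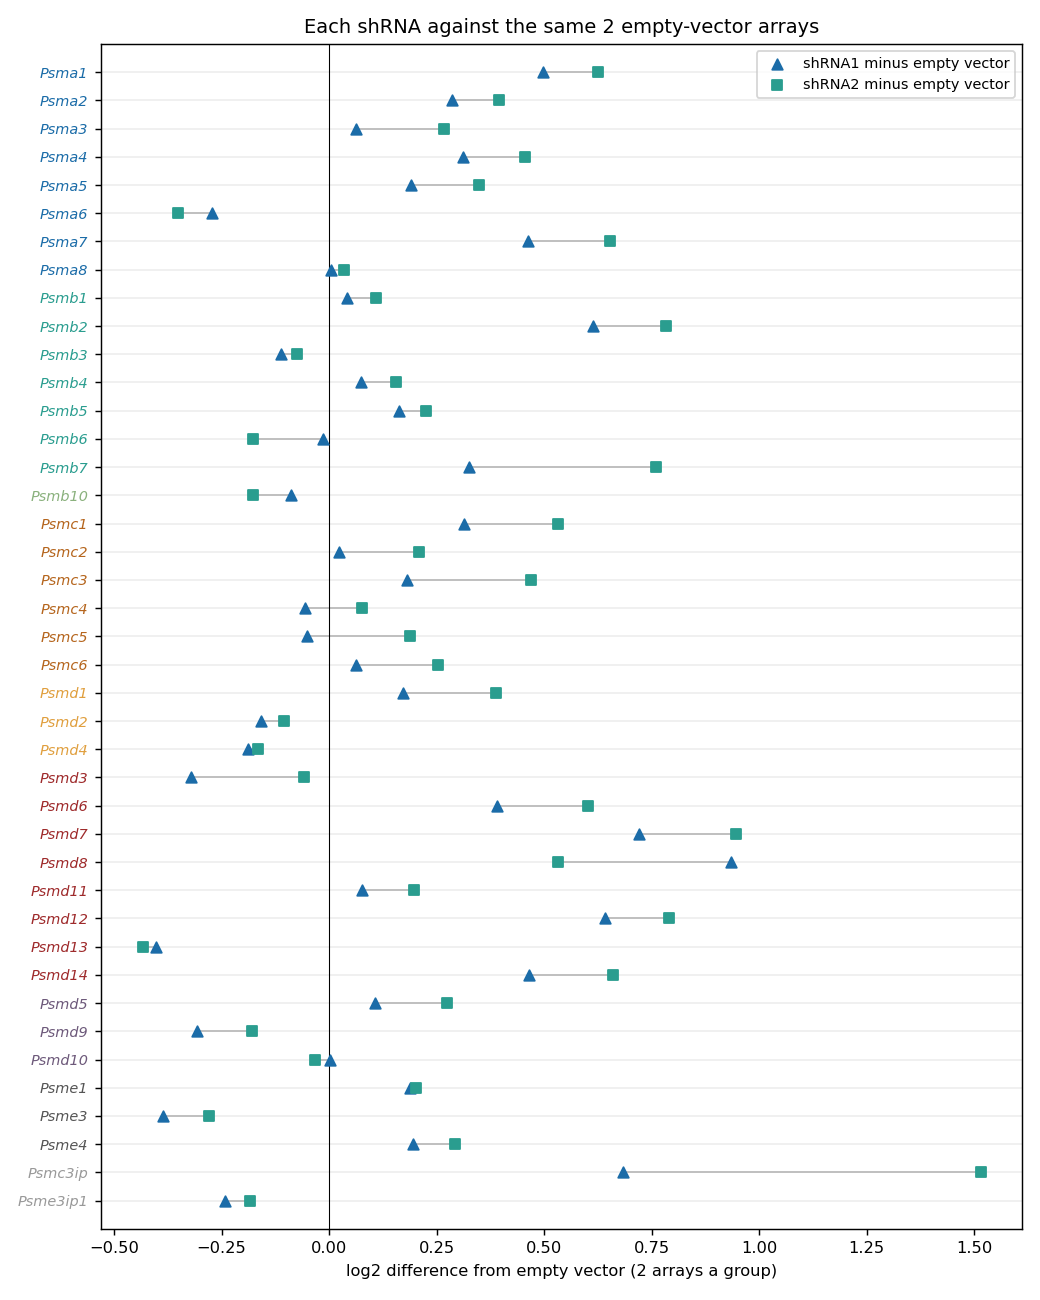
Log2 difference of shRNA1 (triangles) and shRNA2 (squares) from the same 2 empty-vector arrays for each of the 41 genes. The square lies right of the triangle in 35 genes, by most in Psmc3ip, and left of it in 6.

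Genes around the proteasome gave no call in the mean of both shRNAs, where 0.734% of all genes rose and 1.4% fell. None of 13 measured assembly factors, inhibitors and cap-associated proteins passed by limma. An unadjusted p under 0.05 was seen in 3 of them (23.1%; all genes 16.7%), and the median was 0.095 (all genes -0.023). The deubiquitinase Uchl5, which docks on the 19S base, read 9.99 and 9.80 on the controls, 10.44 and 10.06 with shRNA1 and 10.56 on both shRNA2 arrays (0.51 ± 0.16, limma adjusted p = 0.204). The proteasome phosphatase Ublcp1 differed by -0.42 ± 0.14 (limma adjusted p = 0.228), with overlap between shRNA and control arrays. Its difference was -0.11 with shRNA1 and -0.73 with shRNA2. Of 10 ubiquitin and substrate delivery genes, none passed and 0 had an unadjusted p under 0.05 by limma (all genes 16.7%). Rad23b, a shuttle for ubiquitinated proteins, differed by 0.30 ± 0.15 (adjusted p = 0.376) and Ubqln4 by -0.38 ± 0.29 (0.581).

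Of 8 regulators of proteasome gene transcription none passed by limma, and 1 had an unadjusted p under 0.05 (12.5%; all genes 16.7%). This was Nfe2l1, the gene of NRF1, which read 9.59 and 9.10 on the controls, 8.51 and 8.92 with shRNA1 and 8.58 and 8.77 with shRNA2. Its shRNA arrays all lay below the controls (-0.65 ± 0.21, adjusted p = 0.204). The next was Mafk, a small Maf partner, at -0.65 ± 0.37 (adjusted p = 0.458), with a control gap from 9.47 to 8.22. Among 7 target genes of the related factor NRF2, none passed by limma. An unadjusted p under 0.05 was seen in 2 (28.6%; all genes 16.7%), in opposite directions. These were Nqo1, a quinone reductase (-0.61 ± 0.14, adjusted p = 0.106), and Gclm, a subunit of the glutathione synthesis enzyme (0.65 ± 0.18, 0.165).

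Peptides made by the proteasome are loaded on MHC class I molecules. Of 9 measured genes of this route none passed by limma, and the median was 0.048 (all genes -0.023). An unadjusted p under 0.05 was seen in 2 (22.2%; all genes 16.7%). These were Tapbp, which bridges the peptide transporter and MHC class I (-0.73 ± 0.15, adjusted p = 0.0811), and the transporter subunit Tap1 (-0.77 ± 0.17, 0.102), and in both all shRNA arrays lay below the controls. Of 9 interferon signalling genes none passed by limma, and their median was -0.28 (all genes -0.023). The 2 at an unadjusted p under 0.05 (22.2%; all genes 16.7%) were Irf7 (-0.83 ± 0.17, adjusted p = 0.0847) and Stat2 (-0.49 ± 0.14, 0.174).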

How the data were processed

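RNA was measured on 6 Affymetrix arrays. The authors deposited 1 intensity per probe set, and per the submitters' processing notes it comes from RMA. This method corrects background, quantile-normalizes the arrays and summarises probes, and the program that ran it was not given in the sources used here. These values, from 4.96 to 20615 with array medians of 100.2 to 104.9, are linear, so log2 was taken with no pseudocount. Quantile normalization hides any shift that all genes share. Of 22690 probe sets, 20380 with exactly 1 gene in the platform annotation and no control function were used, and the brightest represented each of 12393 genes. Arrays give no counts, so their number limits the precision.

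All genes were fitted together with limma 3.58.1 (R 4.3.3, lmFit and eBayes, 3 residual and 2.91 prior degrees of freedom), with no covariate and two-sided tests, and p-values were adjusted by Benjamini-Hochberg over all genes. The fit took a gene's spread as equal in the 3 groups, and was tested on simulated data made with equal spread. Genes picked for closer description were the catalytic subunits, the activators and those with the smallest p in each direction, and from each related list the 2 with the smallest p. Some of these are given by ranges or differences only, without a value for every array. The members and lists were chosen with earlier results of these data known. Alternatives were other filters, scalings, probe set rules and eBayes settings, the replicate number as a block, and leaving out each array. Promoters came from RefSeq. Tables were joined with pandas 2.3.3 in Python 3.11.15 and plots drawn with matplotlib 3.10.9.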

Additional observations from a re-analysis of the deposited data

How the results depend on the processing

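With any one array left out, the count of the 41 genes that rose with both shRNAs ran from 0 to 11 and the count that fell from 0 to 5, and the same counts ran from 0 to 9 and 0 to 5 for shRNA1 and from 0 to 12 and 0 to 4 for shRNA2. The high ends all come from leaving out empty-vector replicate 2, which leaves as control the array with the Gapdh gap of 2.42. Such a fit has no measure of the spread among the controls. The rising count of 1 for both shRNAs and for shRNA2 was 0 with the dimmer 50% of genes left out, which drops Psmc3ip, and 0 with the 2 genes that encode no subunit left out. With the mean of all probe sets the median difference was 0.22 for both shRNAs, 0.17 for shRNA1 and 0.29 for shRNA2. With an array left out, the median ran from 0.12 to 0.20 for both shRNAs, from 0.036 to 0.16 for shRNA1, from 0.20 to 0.26 for shRNA2, and from -0.20 to -0.065 for shRNA1 minus shRNA2. Quantile normalization, median centring, leaving out the dimmest 25%, an intensity trend and robust settings changed none of these counts of called genes. Over all genes, 264 were called with both shRNAs, against 113 with the dimmer 50% left out, 649 and 3121 without empty-vector replicate 1 or 2, 17 and 93 without shRNA1 replicate 1 or 2, and 3 and 29 without shRNA2 replicate 1 or 2.

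Replicates share numbers in the labels, but nothing there says what a number stands for. With the replicate number as a block the calls of the 41 genes were the same, with Psmc3ip at an adjusted p of 0.0459 and a rising count of 1, while the count of all genes called went from 264 to 288. Over genes, replicate 1 minus replicate 2 correlated between groups at 0.20 (empty vector and shRNA1), 0.15 (empty vector and shRNA2) and 0.58 (shRNA1 and shRNA2).

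Of the 41 genes, 19 changed sign in at least 1 alternative. With the mean of all probe sets these were Psma6 (0.069), Psmb1 (-0.12), Psmb3 (0.32), Psmb4 (-0.038) and Psme3 (0.20), and with other array scaling Psmc4 (-0.00050 and -0.021). With an array left out, the lowest and highest differences were -0.71 to 0.084 for Psma6, -0.29 to 0.33 for Psma8, -0.34 to 0.079 for Psmb10, -0.24 to 0.055 for Psmb3, -0.31 to 0.12 for Psmb6, -0.098 to 1.18 for Psmb7, -0.14 to 0.37 for Psmc2, -0.36 to 0.38 for Psmc4, -0.22 to 0.36 for Psmc5, -0.20 to 0.17 for Psmd10, -1.03 to 0.20 for Psmd13, -0.36 to 0.095 for Psmd2, -0.75 to 0.37 for Psmd3, -0.47 to 1.94 for Psmd8, -0.71 to 0.22 for Psmd9, -0.36 to 0.74 for Psme1 and -0.83 to 0.16 for Psme3. Psma8 and Psmc3ip are the 2 genes of the 41 that are dimmer than the median gene, and with 2 arrays a group the precision is limited by their number.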
